A study of Homo sapiens with 20 samples.

Results

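Small nucleolar RNA host genes are transcribed as spliced RNAs whose introns release small nucleolar RNAs (snoRNAs). The genes examined here are those whose symbol is SNHG followed by a number, together with GAS5, ZFAS1 and EPB41L4A-AS1, provided that at least 100 counts were assigned to them over 20 libraries. By name, 31 of the 60719 genes in the table matched, and 29 reached that count. SNHG18 and SNHG27 did not reach it. Of the 29, SNHG28 had a total of 111 counts and did not pass the low-count filter of the tests, so 28 members were tested among 16327 genes.

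RNA came from Jurkat (WT), established from a human T cell leukemia, and from its CD47-deficient somatic mutant JinB8, a single mutant line called CD47- here. Cells of both lines were plated on immobilized antibodies to CD3 and CD28 (CD3+CD28), on the antibodies with thrombospondin-1 (CD3+CD28+TSP1) or given TSP1 alone, and were harvested at 1, 3 and 6 h. Untreated cells were harvested only at 1 h. Cells were kept in serum-free HITES medium, TSP1 was used at 1 μg/mL and anti-CD28 at 4 μg/mL. Each condition was sequenced once. Each line therefore has 4 libraries of 1 h, 3 of 3 h and 3 of 6 h, and libraries of different treatments stand in as replicates of a line and time. Because untreated cells have no later library, effects of time in medium or on the plate and of the treatments over time cannot be told apart. Because nothing states that the libraries of a line came from separate cultures, every p-value measures only the spread between these libraries.

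WT libraries held 20483642 to 31737616 expected counts and CD47- libraries 16107921 to 28525524. All 12 T cell markers examined had a mean of 1 CPM (counts scaled to the TMM-adjusted library size) or more in both lines, and none of the 5 myeloid markers did. Of 5 fibroblast markers 2 did in WT and 1 in CD47- cells, and of 5 epithelial markers 0 and 1. The summed levels of these lists were at most 8.06 and 3.78 CPM. Of 5 B cell markers 3 did in each line, with a summed level of 50.4 to 73.6 CPM in WT and 7.47 to 16.1 in CD47- cells, and the sum of 5 NK markers was 4.06 to 11.01 CPM in WT and 14.7 to 38.3 in CD47- cells. The part of these differences in the results between lines was not tested. CD47 mRNA was lower in CD47- cells, with 147 ± 12.6 CPM against 317 ± 42.1 in WT (SD, n = 10 libraries a line; edgeR log2 fold change -1.10, SE 0.078, adjusted p = 1.05e-10). The library of CD47- cells treated with CD3+CD28+TSP1 for 3 h stood apart, with the lowest total, 16107921, and the highest TMM scaling factor, 1.20. Counts of members called at 3 h, and the 3 h values of GAS5 and EPB41L4A-AS1, are therefore given with and without it. In bulk RNA, fewer cells of a type and less RNA per cell cannot be told apart.

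In most of these genes the spliced exons encode no known protein and the functional product lies in an intron. Box C/D snoRNAs guide 2′-O-methylation and box H/ACA snoRNAs guide pseudouridylation of ribosomal RNA, and the related scaRNAs guide modification of spliceosomal RNAs in Cajal bodies. The exonic RNA of several hosts, GAS5 among them, is degraded on ribosomes by nonsense-mediated decay, and many hosts begin with a 5′ terminal oligopyrimidine tract, the start sequence that ribosomal protein mRNAs carry, which ties translation of an RNA to growth signalling. GAS5, named for growth arrest-specific transcript, accumulates in arrested cells and its RNA binds the glucocorticoid receptor. In T cells it has been linked to slower growth.

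The tract is shown for members whose annotated start carries it, because it is the sequence feature best known in this gene class. A tract was counted where the first base is C and is followed by at least 4 bases that are C or T. In the RefSeq windows of GRCh38.p14, 25 of the 29 members had an entry and 6 of them, 24%, began with such a tract, against 4.07% of 35116 genes. Each line gives the 10 bases before the start and the 20 from it, with the tract in capitals.
ZFAS1: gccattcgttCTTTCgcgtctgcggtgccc
SNHG5: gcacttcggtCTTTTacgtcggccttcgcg
SNHG32: cattttagttCTTTTTgcgaagtgggctcg
SNHG19: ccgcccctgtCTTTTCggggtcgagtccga
SNHG12: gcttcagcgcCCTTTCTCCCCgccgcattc
SNHG4: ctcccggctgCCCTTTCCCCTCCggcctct
These windows lie at chr20:49278632-49278661 for ZFAS1, chr6:31834906-31834935 for SNHG32 and chr5:139274091-139274120 for SNHG4 on the plus strand. On the minus strand, they lie at chr6:85678714-85678743 for SNHG5, chr16:2155339-2155368 for SNHG19 and chr1:28581854-28581883 for SNHG12. The RefSeq start of GAS5 carries no such tract, but the start of the isoform with the most counts here, read from GRCh38 at chr1:173867970-173867999 on the minus strand, does.
GAS5: accatactgtCTTTTCgaggtaggagtcga
With the GENCODE 44 start of the isoform that had the most counts, the tract was found in 2 of 29 members, GAS5 and SNHG12, or 6.9%, against 4.21% of 16163 genes. The share therefore depends on which annotated start is taken, and when the tract was allowed to begin within 10 bases of the start, a limit chosen after the sequences were seen, the share was 60% of members against 33.5% of genes with RefSeq and 44.8% against 31.8% with GENCODE. The E-box CACGTG, a palindrome read by MYC and other factors, was in the window from 250 bases before to 50 bases after the start of 2 of 25 members with RefSeq starts, SNHG7 and SNHG30, or 8%, against 7.26% of genes, and of 7 of 29 members, or 24.1%, against 9.19% with the GENCODE starts. The members with the tract did not share a response: ZFAS1 and SNHG32 fell from 1 to 6 h in both lines, SNHG4 rose in both (the call in WT was lost in 10 of 27 alternatives), and SNHG12 and SNHG19 rose in CD47- cells.

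Host genes covered a wide range of levels. Levels between genes are compared as CPM per kb of transcript, summed over isoforms of known length. These held 78.3% of the counts of SNHG8 and all counts of every other member. SNHG29, host of the SNORD49 pair and SNORD65, had the highest level with 540 ± 76.3 CPM per kb in WT and 361 ± 66.0 in CD47- cells (SD, n = 10 libraries a line, over all treatments and times). GAS5 came next with 359 ± 99.8 and 300 ± 70.8 CPM per kb, followed by ZFAS1 with 246 ± 58.5 and 199 ± 44.8, and the ranges of mean ± SD of GAS5 and ZFAS1 overlapped in both lines. SNHG6, SNHG32, SNHG1 and SNHG5 lay between 155 and 191 CPM per kb over all libraries, SNHG15 and SNHG8 at 77.6 and 69.0, and the next 13 members between 53.4 and 12.8. At the low end, SNHG25 had 5.70 CPM per kb, SNHG31 had 0.983 and SNHG28 had 0.0910. SNHG14, the long host of the imprinted SNORD115 and SNORD116 arrays on chromosome 15, had 33.9 ± 2.52 CPM per kb in WT and 43.6 ± 3.88 in CD47- cells. The total over all 29 members, in CPM, fell between 1 and 3 h in both lines and rose again by 6 h. In WT the means were 2957 ± 186 CPM (1 h, n = 4), 2477 ± 60.5 CPM (3 h, n = 3) and 2725 ± 58.2 CPM (6 h, n = 3). In CD47- cells they were 2543 ± 57.8, 2047 ± 264 and 2953 ± 34.7 CPM, and the library that stood apart had 1750 CPM, against 2132 and 2258 in the other 3 h libraries of CD47- cells. At 1 h, every CD47- library was below every WT library, and at 6 h every CD47- library was above every WT library.

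**Figure D1:**
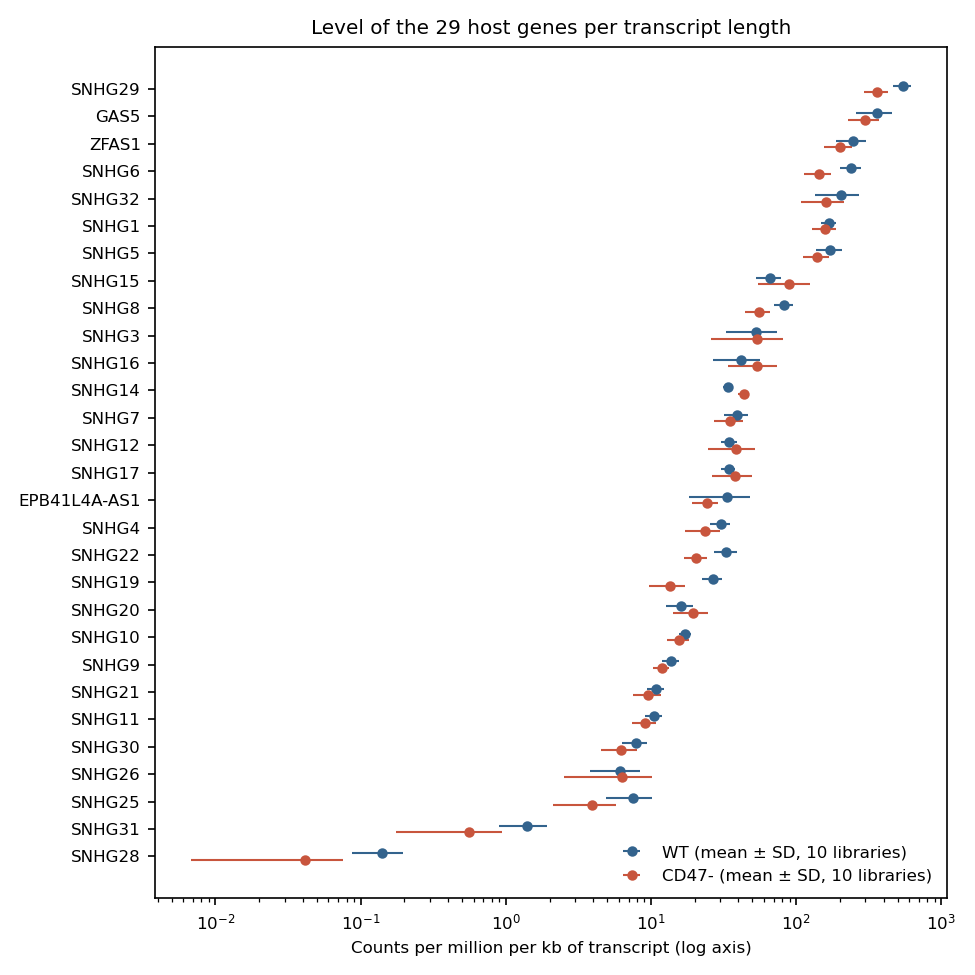
Level of each of the 29 host genes in CPM per kb of transcript on a log axis, with points for the mean and bars for the SD over the 10 libraries of a line. SNHG29 was highest, at 540 in WT and 361 in CD47- cells, and SNHG28 lowest, and for SNHG29, SNHG6, SNHG8, SNHG14, SNHG22, SNHG19 and SNHG28 the bars of the lines do not overlap. For SNHG8, isoforms of known length held 78.3% of the counts. In CPM its mean ± SD overlapped, at 66.1 ± 9.30 in WT and 54.1 ± 19.6 in CD47- cells.

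Over all times, CD47- cells had lower levels of 7 of the 28 members and a higher level of 1. Lower were SNHG31, SNHG19, SNHG6, SNHG22, SNHG25, SNHG29 and SNHG4, and SNHG14 was higher. With the edgeR quasi-likelihood test and adjusted p under 0.05, the background over all 16327 genes was 19.8% higher and 20.6% lower, so the share of members called lower, 25.0%, was close to the background and the share called higher, 3.57%, was below it. The median log2 fold change was -0.16 over the members and -0.01 over all genes tested. This comparison has no term for time, which several members changed with. With a block for the 10 pairs matched for treatment and time it gave 4 members higher and 12 lower, and in the model with treatment and time terms 6 higher and 13 lower. These fits called 8957 and 10116 of the 16327 genes in either direction.

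All 7 members called lower were lower in CD47- cells in each of the 10 matched pairs, but only SNHG19 and SNHG29 had no overlap between the lines over all libraries. No share over all genes stands beside these counts, so they only describe the members. SNHG19, host of SNORD60 on chromosome 16 from 2154792 to 2155405, had its lowest, median and highest values at 8.30, 9.92 and 13.97 CPM in WT and at 2.94, 5.19 and 7.65 in CD47- cells. The lines did not overlap (log2 fold change -0.98, SE 0.146, adjusted p = 1.01e-05). SNHG6, host of SNORD87 on chromosome 8, had 105, 145 and 177 CPM in WT and 52.9, 88.6 and 109 in CD47- cells, with WT libraries of 6 h at 105 and 108 CPM below the highest CD47- library (log2 fold change -0.75, SE 0.130, adjusted p = 6.49e-05). At matched treatment and time SNHG6 was lower in CD47- cells in 10 of 10 pairs, and SNHG19 was also. SNHG22, host of SCARNA17, ranged from 12.1 to 21.6 CPM in WT against 6.95 to 12.4, with a median of 10.5, in CD47- cells, with a small overlap (log2 fold change -0.69, SE 0.119, adjusted p = 6.71e-05). SNHG29 had 460, 508 and 662 CPM in WT and 226, 371 and 434 in CD47- cells, without overlap (log2 fold change -0.52, SE 0.103, adjusted p = 0.00032). SNHG4, host of SNORA74A, was lower by a smaller step (log2 fold change -0.48, SE 0.121, adjusted p = 0.00254). SNHG31, host of SNORA70I, was scarce, at 1.43 to 4.17 CPM in WT and 0.326 to 2.13 in CD47- cells (log2 fold change -1.51, SE 0.281, adjusted p = 0.000154). SNHG25 had the least firm call (log2 fold change -0.69, SE 0.268, adjusted p = 0.0423), which was lost in 15 of 26 alternatives, with adjusted p between 0.00108 and 0.0778. SNHG14, with 212, 231 and 288 CPM in WT and 265, 296 and 360 in CD47- cells, was higher in 10 of 10 pairs (log2 fold change 0.37, SE 0.073, adjusted p = 0.00026). It overlaps SNRPN on its own strand and UBE3A on the opposite strand. As the strand setting of the counting is not given, reads of antisense partners cannot be told apart. This limit also holds for ZFAS1, opposite ZNFX1, for EPB41L4A-AS1, opposite EPB41L4A, and for other members with a gene on the opposite strand. On their own strand SNHG3 overlaps RCC1, SNHG4 overlaps MATR3 and SNHG20 overlaps SEC14L1, and some other members also overlap a gene. Reads in such overlaps can be shared whatever the strand setting.

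In the model with treatment and time terms, 16 of 28 members were lower in CD47- cells at 1 h, against a background of 20.8%, and 2 were higher, SNHG14 and SNHG16, against 22.2%. The median log2 fold change was -0.31, against -0.01 over all genes. At 3 h, 13 were lower and 5 higher, with backgrounds of 23.2% and 23.3%. Without the CD47- library that stood apart, 8 were lower and 5 higher at 3 h. The 5 became 2 without the CD3+CD28 or the TSP1 library of WT at 3 h or the TSP1 library of CD47- cells at 3 h, and 3 without the CD3+CD28 library of CD47- cells. With any 1 library left out, 6022 to 7792 genes were called at 3 h and 6277 to 8977 at 6 h, in either direction. Shares by direction in those fits are not given. The higher calls of SNHG15, SNHG16, SNHG17 and SNHG20 were lost in 3, 4, 8 and 2 of 22 alternatives (adjusted p up to 0.197, 0.282, 0.264 and 0.0694). At 6 h, 9 members were higher, EPB41L4A-AS1, GAS5, SNHG7, SNHG12, SNHG14, SNHG15, SNHG16, SNHG17 and SNHG26, and 5 were lower, SNHG6, SNHG19, SNHG29, SNHG30 and SNHG31, against backgrounds of 22.8% and 24.5%. The median was 0.07. Without the CD3+CD28+TSP1 library of 6 h of either line 5 were higher, and without the TSP1 library of CD47- cells at 6 h 2 were lower, or 3 without that of CD3+CD28 or the TSP1 library of WT. SNHG16, SNHG29 and SNHG30 each lost the 6 h call without either of 2 libraries (adjusted p up to 0.103). EPB41L4A-AS1, GAS5, SNHG7 and SNHG26 were each lower at 1 h and higher at 6 h, and SNHG6, SNHG19, SNHG29 and SNHG31 were lower at both times. How many of all genes had such pairs of calls was not counted. For EPB41L4A-AS1 and SNHG7 both calls held in all 22 alternatives. For GAS5 the call at 1 h was lost without any 1 of 3 libraries (adjusted p up to 0.120) and that at 6 h without any 1 of 7 (up to 0.237), and for SNHG26 they were lost in 7 and 4 alternatives (up to 0.262 and 0.176). At 6 h the call of SNHG14 was also lost in 8 (up to 0.174) and that of SNHG19 in 13 (up to 0.187).

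**Figure D2:**
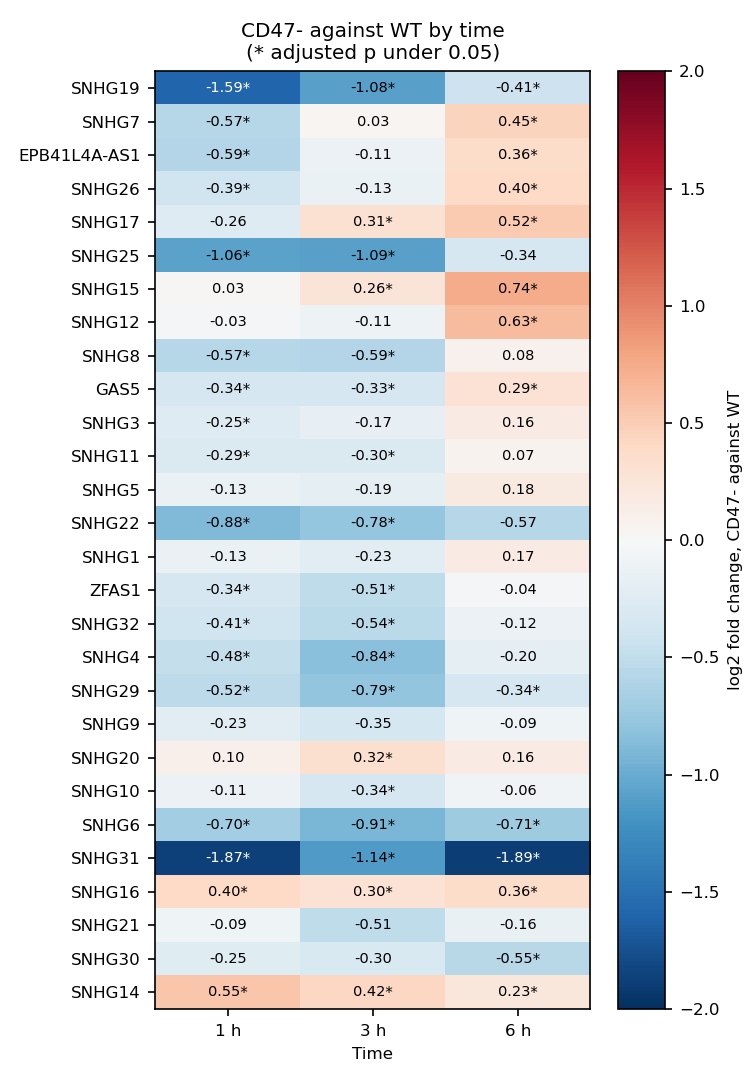
Log2 fold change of CD47- against WT cells at 1, 3 and 6 h for the 28 members tested, ordered by the difference between 6 and 1 h, with an asterisk where the edgeR adjusted p is under 0.05. SNHG19 moves from -1.59 to -0.41 and SNHG7 from -0.57 to 0.45, while SNHG6 stays between -0.91 and -0.70.

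The difference between the lines in the change from 1 to 6 h was tested as an interaction. In 10 members the change was more positive in CD47- cells, against a background of 6.46% in that direction, and no member was called in the other direction, against 10.2% of genes. In either direction 15 of 28 members and 4979 of 16327 genes had an unadjusted p under 0.05 in edgeR. DESeq2 and limma voom also called no member as more negative in CD47- cells. With 1 library left out, 2 fits called 1 member as more negative. Without the CD47- library that stood apart it was SNHG14 (-0.32, edgeR adjusted p = 0.0103). The median interaction was 0.31 on the log2 scale over the members and -0.002 over all genes. The 10 were SNHG19, SNHG7, EPB41L4A-AS1, SNHG26, SNHG17, SNHG15, SNHG12, SNHG8, GAS5 and SNHG3. At 3 h the same test called 1 member, EPB41L4A-AS1 (0.48, SE 0.126, adjusted p = 0.0475), with a background of 2.02% in that direction, and this call was lost in 16 of 22 alternatives (adjusted p 0.00939 to 0.135). Without the CD47- library that stood apart it was 0.59, and 3 members were called.

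GAS5 lies on chromosome 1 from 173858559 to 173868882 on the minus strand of GRCh38 (GENCODE 44, lncRNA). In WT cells at 1 h the untreated, CD3+CD28, CD3+CD28+TSP1 and TSP1 libraries had 321, 386, 326 and 333 CPM. At 3 h the CD3+CD28, CD3+CD28+TSP1 and TSP1 libraries had 210, 236 and 238, and at 6 h 294, 273 and 297. GAS5 thus dipped at 3 h in WT and stayed below all 1 h libraries at 6 h. In CD47- cells, in the same order of treatments, it had 265, 279, 264 and 283 CPM at 1 h, 192, 139 and 218 at 3 h, and 352, 346 and 352 at 6 h. Here the 6 h libraries were above every library of 1 h. From 1 to 3 h GAS5 fell in both, with log2 fold changes of -0.61 for WT (SE 0.108, adjusted p = 0.000636) and -0.60 for CD47- (SE 0.108, adjusted p = 0.000745), or -0.43 without the library that stood apart, and the interaction was 0.01 (SE 0.152), or 0.18 without that library. From 1 to 6 h the log2 fold change was -0.27 in WT (SE 0.107, adjusted p = 0.0455) and 0.35 in CD47- cells (SE 0.107, adjusted p = 0.0137), with an interaction of 0.62 (SE 0.151, adjusted p = 0.0131). The call of a fall in WT was lost in 12 of 27 alternatives (adjusted p 0.00552 to 0.210), that of a rise in CD47- cells in 3, and that of the interaction in none.

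EPB41L4A-AS1, an RNA antisense to EPB41L4A on chromosome 5 from 112160526 to 112164818 that hosts SNORA13, had 46.3, 48.7, 52.5 and 51.2 CPM in the 1 h libraries of WT, 33.1, 29.5 and 33.4 in those of 3 h and 30.6, 34.0 and 30.6 in those of 6 h. For CD47- cells the 1 h libraries had 35.0, 34.5, 32.1 and 34.4 CPM, the 3 h libraries 32.7, 25.8 and 30.6 and the 6 h libraries 39.5, 42.6 and 40.0. The WT level at 1 h stood apart from all other groups of this gene. Its log2 fold change from 1 to 6 h was -0.68 in WT (SE 0.089, adjusted p = 2.3e-05) and 0.28 in CD47- cells (SE 0.089, adjusted p = 0.0179), the latter lost in 3 of 27 alternatives, and the interaction was 0.95 (SE 0.126, adjusted p = 0.000229).

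SNHG7, host of the SNORA17 genes on chromosome 9 from 136721366 to 136728184, had 47.8, 52.5, 64.1 and 61.7 CPM in WT at 1 h and 50.7, 48.4 and 49.8 at 6 h. In CD47- cells it had 45.3, 37.5, 45.3 and 36.6 CPM at 1 h and 67.5, 67.4 and 68.4 at 6 h. SNHG7 was thus below every WT library at 1 h and above every one at 6 h, with an interaction of 1.02 (SE 0.165, adjusted p = 0.00103). SNHG26, host of SNORD93 on chromosome 7, rose in both lines. It had 5.77, 7.07, 7.63 and 7.06 CPM at 1 h and 14.5, 11.3 and 12.9 at 6 h in WT, and 5.12, 5.93, 4.49 and 6.16 at 1 h and 16.7, 18.6 and 15.5 at 6 h in CD47- cells. The rise was larger in CD47- cells (interaction 0.79, SE 0.195, adjusted p = 0.0141), a call lost without the WT library of CD3+CD28+TSP1 at 6 h (0.67, adjusted p = 0.0610).

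SNHG12, SNHG15 and SNHG17 were not called between the lines at 1 h (log2 fold changes -0.03, 0.03 and -0.26) and were all higher in CD47- cells at 6 h. SNHG15, host of SNORA9, had between 85.7 and 118 CPM in WT and between 105 and 119 in CD47- cells at 1 h. At 6 h it had 128, 125 and 124 CPM in WT and 211, 210 and 209 in CD47- cells, a line difference of 0.74 (SE 0.091, adjusted p = 1.35e-05) and an interaction of 0.71 (SE 0.128, adjusted p = 0.0022). SNHG12, host of SNORA44, SNORA61 and SNORD99, had between 36.7 and 48.1 CPM in WT and 39.3 and 45.8 in CD47- cells at 1 h, and 51.3, 49.9 and 48.4 against 78.4, 77.0 and 75.5 at 6 h (interaction 0.66, SE 0.124, adjusted p = 0.0029). SNHG17, host of the SNORA71 genes on chromosome 20, had 52.3 to 57.7 CPM at 1 h and 64.4, 61.3 and 60.4 at 6 h in WT, against 43.8 to 50.01 at 1 h and 93.5, 86.5 and 86.3 at 6 h in CD47- cells (interaction 0.78, SE 0.166, adjusted p = 0.00647). In all 3 genes, the CD47- libraries at 6 h lay above every other library, and for SNHG17 the next highest, at 76.0 CPM, was the CD47- library that stood apart.

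SNHG8, host of SNORA24 on chromosome 4, was at 53.1 to 70.3 CPM in WT and 42.3 to 46.2 in CD47- cells at 1 h. By 6 h the levels were 75.2, 77.6 and 80.4 in WT and 82.8, 82.5 and 80.7 in CD47- cells, so that the lines had come together from different starting levels (interaction 0.65, SE 0.122, adjusted p = 0.00268). SNHG19 rose in CD47- cells from 5.45, 4.18, 4.78 and 2.94 CPM at 1 h to 7.65, 7.45 and 6.29 at 6 h and had 9.78, 9.70, 13.97 and 12.2 at 1 h and 8.30, 10.8 and 9.43 at 6 h in WT (interaction 1.18, SE 0.233, adjusted p = 0.00391). SNHG3, host of SNORA73A and SNORA73B, rose in both lines. WT had 80.6, 92.9, 99.6 and 90.4 CPM at 1 h and 187, 198 and 194 at 6 h, and CD47- cells had 79.0, 82.3, 79.1 and 75.8 and then 221, 217 and 207. Its interaction of 0.41 (SE 0.102, adjusted p = 0.0152) was lost without any 1 of 4 libraries, WT CD3+CD28+TSP1 at 6 h or, in CD47- cells, CD3+CD28 or TSP1 at 1 h or CD3+CD28+TSP1 at 6 h, with the highest adjusted p at 0.0551.

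**Figure D3:**
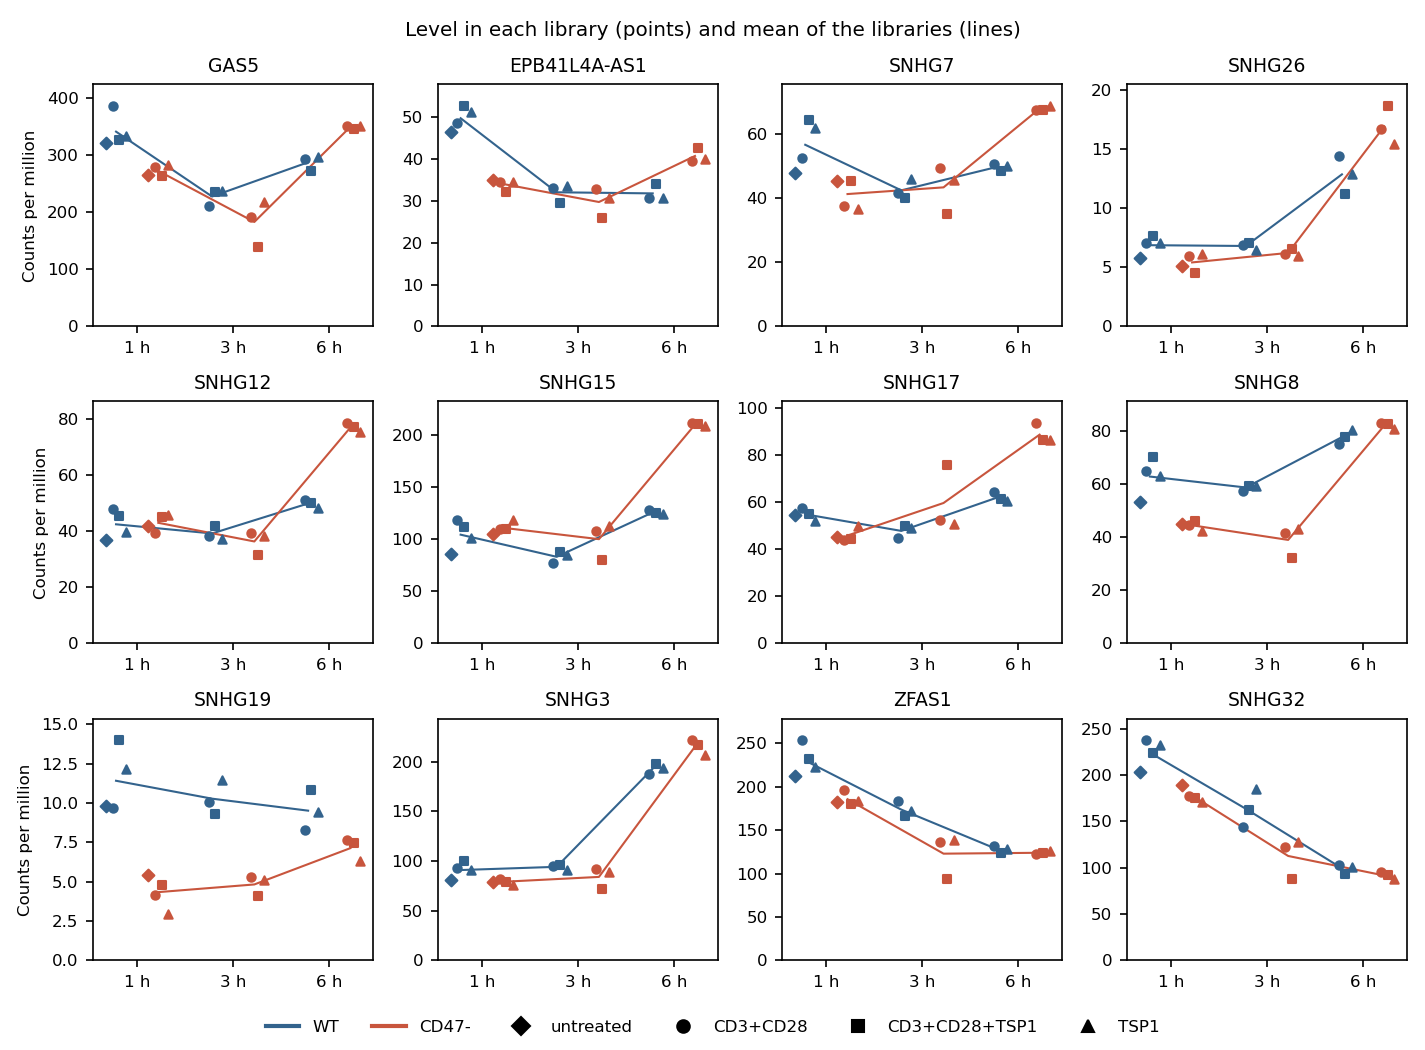
CPM of 12 host genes in each library at 1, 3 and 6 h, with a symbol for each treatment, lines through the group means and a vertical axis from 0. In GAS5, EPB41L4A-AS1, SNHG7 and SNHG26 the CD47- libraries lie mostly below WT at 1 h and all above it at 6 h, and ZFAS1 and SNHG32 fall in both lines.

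From 1 to 6 h, 8 members rose and 7 fell in WT, against backgrounds of 25.7% and 24.8%. In CD47- cells 17 rose and 5 fell, against 26% and 27%. The median log2 fold change over the members was 0.10 in WT and 0.43 in CD47- cells, and -0.003 over all genes in each line. Rising in both lines were SNHG3, SNHG4, SNHG8, SNHG10, SNHG16, SNHG20 and SNHG26. No share over all genes stands beside the lists of members called in both lines, so the lists only describe the members. The count of 8 in WT was 4 without the TSP1 library of WT at 1 h, 5 without the TSP1 library of 6 h of either line and 5 with no low-count filter. In WT the call of SNHG4 was lost in 10 of 27 alternatives (adjusted p up to 0.245), that of SNHG8 in 9 (up to 0.208), and that of SNHG31, the other member that rose there, in 15 of 26 (up to 0.259). Falling in both were SNHG6, SNHG30, SNHG32 and ZFAS1, with the call of SNHG30 in WT lost without any 1 of 4 WT libraries (adjusted p 0.0585 to 0.0765). A further 8 members, SNHG1, SNHG7, SNHG11, SNHG12, SNHG15, SNHG17, SNHG19 and SNHG25, rose in CD47- cells and were not called in WT, and SNHG5, SNHG9, SNHG21 and SNHG22 were called in neither. For SNHG5 every CD47- library of 6 h was above every one of 1 h, and a rise in CD47- cells was called in 8 alternatives. From 1 to 3 h, 2 rose and 8 fell in WT, against 16.9% and 17.4%, and 3 rose and 8 fell in CD47- cells, against 18% and 20.1%. Without the library that stood apart, 7 rose and 7 fell in CD47- cells at 3 h, and 3 rose and 12 fell in WT. The shares over all genes in that fit are not given, so these counts only describe the members. With any 1 library left out, 4623 to 6220 genes were called at 3 h in CD47- cells and 4204 to 7099 in WT, in either direction.

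**Figure D4:**
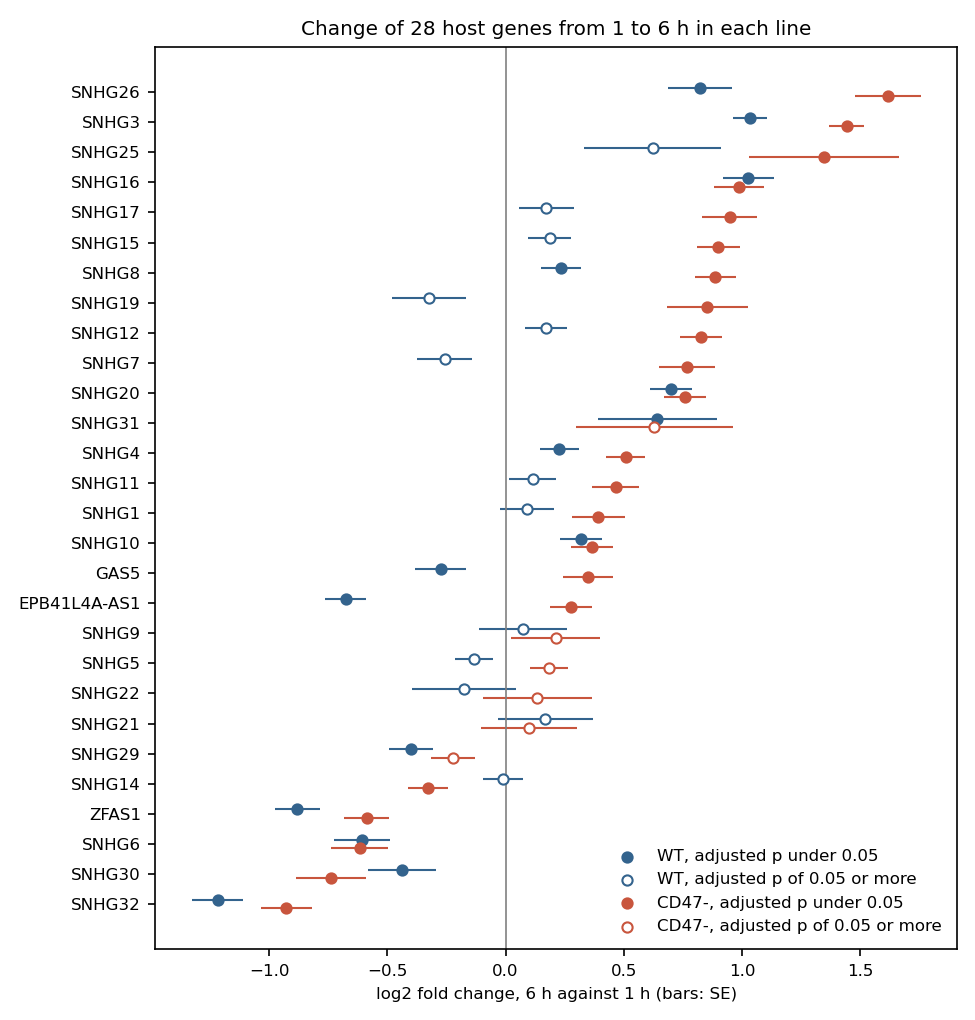
Log2 fold change from 1 to 6 h in WT and CD47- cells for 28 host genes, with bars for the SE and filled points where the edgeR adjusted p is under 0.05. The point of CD47- cells lies to the right of that of WT in 22 of 28 members, with the widest gaps in SNHG19, SNHG7 and EPB41L4A-AS1. Over all genes tested the median of this difference between the lines was -0.002.

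In WT, SNHG32 and ZFAS1 fell most, and in CD47- cells SNHG32 and SNHG30. SNHG32, host of SNORD48 and SNORD52 on chromosome 6 from 31834608 to 31839766, had 203, 237, 223 and 233 CPM at 1 h and 103, 93.5 and 101 at 6 h in WT, and 189, 177, 175 and 170 at 1 h and 95.1, 92.1 and 87.5 at 6 h in CD47- cells. The log2 fold changes were -1.22 (SE 0.109, adjusted p = 6.83e-07) and -0.93 (SE 0.108, adjusted p = 6.95e-06). ZFAS1, antisense to the start of ZNFX1 on chromosome 20 from 49278178 to 49299600 and host of the SNORD12 genes, had 213, 253, 232 and 222 CPM and then 132, 124 and 128 in WT, and 183, 197, 179 and 183 and then 122, 124 and 126 in CD47- cells. Its log2 fold changes were -0.88 (SE 0.095, adjusted p = 3.86e-06) and -0.59 (SE 0.095, adjusted p = 0.000131). At 6 h the lines had the same level of ZFAS1 within the spread of the libraries (line difference -0.04, SE 0.095), whereas at 1 h all CD47- libraries were lower. SNHG6 fell by 0.61 in WT and by 0.62 in CD47- cells on the log2 scale, and SNHG30, host of SNORD7, by 0.44 and 0.74.

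SNHG16 and SNHG3 rose most in WT. SNHG16, host of the SNORD1 genes on chromosome 17, had 68.7, 75.7, 67.5 and 70.7 CPM at 1 h and 151, 137 and 147 at 6 h in WT, and 87.6, 99.4, 93.0 and 89.4 at 1 h and 189, 192 and 176 at 6 h in CD47- cells. The log2 fold changes were 1.03 (SE 0.107, adjusted p = 3e-06) and 0.99 (SE 0.107, adjusted p = 3.37e-06), and the interaction was -0.04 (SE 0.150). SNHG3 had log2 fold changes of 1.03 in WT (SE 0.073, adjusted p = 7.91e-08) and 1.44 in CD47- cells (SE 0.074, adjusted p = 5.63e-09). SNHG25, host of SNORD104 and SNORA50C, had 0.579 to 0.762 CPM at 1 h and 1.96, 1.74 and 1.77 at 6 h in CD47- cells, without overlap (log2 fold change 1.35, SE 0.317, adjusted p = 0.00257). SNHG20, host of SCARNA16, rose by 0.70 and 0.76. SNHG1, host of a cluster of box C/D snoRNAs that includes SNORD22 on chromosome 11 from 62851978 to 62855953, had 264, 305, 248 and 276 CPM in WT at 1 h, then 207, 242 and 231 and then 301, 274 and 307. In CD47- cells it had 239, 252, 236 and 267 CPM, then 205, 145 and 240, and then 340, 318 and 331. Its change from 1 to 6 h was 0.09 in WT (SE 0.113) and 0.39 in CD47- cells (SE 0.113, adjusted p = 0.00959), with an interaction of 0.30 (SE 0.160, adjusted p = 0.223). The call in CD47- cells was lost without the CD3+CD28 library of 1 h (adjusted p 0.0508) or the CD3+CD28+TSP1 library of 6 h (0.0807). SNHG31 was the member that rose most at 3 h, by 1.02 in WT (SE 0.251, adjusted p = 0.00619) and 1.76 in CD47- cells (SE 0.306, adjusted p = 0.000611). In CD47- cells it had only 8 to 27 counts a library at 1 h and 28 to 41 at 3 h. The library that stood apart had its highest 3 h level there, 2.13 CPM, against 1.19 and 1.58 in the other libraries.

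Members were sorted by the kind of small RNA gene that GENCODE 44 lists inside them on the same strand, a sorting made after the values were seen. Of 10 members with box H/ACA genes only, 8 rose from 1 to 6 h in CD47- cells and none fell, and in WT 4 rose and 1 fell. Of 11 members with box C/D genes only, 4 rose and 5 fell in CD47- cells, and 2 rose and 5 fell in WT. The median log2 fold changes in CD47- cells were 0.70 and -0.22. Over all genes 26% rose and 27% fell in CD47- cells, and 25.7% and 24.8% in WT. The 4 scaRNA hosts gave 2 that rose in each line, SNHG10 and SNHG20, and the interaction was called, always as positive, in 6 of 10 box H/ACA hosts, in 2 of 11 box C/D hosts and in none of the scaRNA hosts, against 6.46% of genes. SNHG12 and SNHG25, which hold both kinds, stand outside these kinds, and the interaction was called in SNHG12. GAS5 is a host whose snoRNAs have no separate entry in this annotation, so this sorting could not assign its kind. Its fall in WT, its rise in CD47- cells and its interaction call are therefore missing from the counts by kind. No test compared the kinds.

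Genes of 18 small RNAs listed within 12 hosts were themselves tested. These libraries were made from polyadenylated RNA, so the counts may not follow the mature small RNAs. In WT cells 9 of the 18 fell from 1 to 6 h and none rose, with a median log2 fold change of -0.46, and in CD47- cells 2 rose and 1 fell, with a median of 0.14. Over all genes 25.7% rose and 24.8% fell in WT, and 26% and 27% in CD47- cells. The interaction was positive and called in 4, against 6.46% of genes. No test compared hosts with their nested genes. In WT, SNHG3 rose by 1.03 while SNORA73B, a copy of the U17 snoRNA used in ribosomal RNA cleavage, was lower at 6 h (log2 fold change -0.73, SE 0.129, adjusted p = 0.000295), as was SNORA73A (-0.68, SE 0.162, adjusted p = 0.00293). SNORA74A, in SNHG4, had log2 fold changes of -0.35 in WT (SE 0.122, adjusted p = 0.0261) and 0.27 in CD47- cells (SE 0.122, adjusted p = 0.0795). SNORA71C, in SNHG17, changed by -1.21 in WT (SE 0.242, adjusted p = 0.000814). The genes nested in SNHG3 held 654410 counts over all libraries and SNHG3 itself 58494, and reads that overlap both can be split between them by the counting.

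Isoforms were tested in the same way. Of 272 member isoforms tested, from 28 members, 29 were higher and 21 lower at 6 h than at 1 h in WT, with backgrounds of 8.14% and 6.72% among 55450 isoforms, and 61 were higher and 18 lower in CD47- cells, with backgrounds of 9.15% and 8.18%. Between the lines, 14 were higher and 19 lower in CD47- cells, with backgrounds of 7.51% and 7.55%. The counts in WT and between the lines were near these shares. In GAS5 the 12-exon isoform GAS5-221, the most abundant over all libraries, fell while GAS5-230, a 2-exon isoform annotated as retained intron, rose. At 6 h GAS5-230 held a larger share than GAS5-221 in both lines. GAS5-221 held 52.1, 52.6, 51.2 and 54.9% of the GAS5 counts in WT at 1 h, in the order untreated, CD3+CD28, CD3+CD28+TSP1 and TSP1. At 6 h it held 20.5, 21.5 and 21.9%, so its share in every 6 h library was below that in every 1 h library. In CD47- cells it held 45.3, 41.6, 42.2 and 42.5% at 1 h and 14.7, 14.6 and 14.4% at 6 h. GAS5-230 held 8.60, 7.86, 9.42 and 8.85% at 1 h and 25.6, 28.1 and 23.5% at 6 h in WT. In CD47- cells its mean share was 13.85% at 1 h and 29.6% at 6 h. The log2 fold change of GAS5-230 was 1.35 in WT (SE 0.082, adjusted p = 9e-06) and 1.52 in CD47- cells (SE 0.083, adjusted p = 6e-06), while GAS5-221 changed by -1.53 (SE 0.154, adjusted p = 0.000137) and -1.10 (SE 0.152, adjusted p = 0.000799).

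The share of counts in all isoforms annotated as retained intron was then computed, a measure chosen after the isoform values were seen. For GAS5, which has 20 such isoforms, the means at 1, 3 and 6 h were 26.6 ± 1.38%, 41.2 ± 0.946% and 62.7 ± 0.802% in WT and 34.1 ± 1.05%, 50.7 ± 2.10% and 70.6 ± 0.481% in CD47- cells (SD, n = 4, 3 and 3 libraries). No 2 of these time points overlapped within a line, and at each time all CD47- libraries were above all WT libraries. For the 27 other members together WT had 13.0 ± 0.476% at 1 h and 18.7 ± 0.414% at 6 h and CD47- cells had 16.9 ± 0.193% and 21.3 ± 0.358%, without overlap, whereas over all genes tested it was 5.75 ± 0.391% and 5.20 ± 0.0259% in WT and 5.90 ± 0.219% and 5.15 ± 0.177% in CD47- cells, lower at 6 h without overlap. A pooled share also moves with the levels of its members: SNHG3, with 61.2% and 67.2% in WT and 65.3% and 64.1% in CD47- cells, rose in level in both lines. Without SNHG3 as well, a choice made after seeing the data, the 26 other members had 11.3 ± 0.573% and 14.5 ± 0.0584% in WT and 15.2 ± 0.0809% and 17.4 ± 0.345% in CD47- cells, still without overlap. These 26 include SNHG12, with shares of 90.9% and 91.9% in WT and 92.2% and 91.6% in CD47- cells. Its mean level at 1 and 6 h was 42.5 and 49.9 CPM in WT and 43.0 and 77.0 CPM in CD47- cells. How much of the remaining difference came from such changes in level was not tested. Of the 14 members with an isoform of this type, 7 in WT and 5 in CD47- cells had every 6 h library above every 1 h library, and 1 in each line had every one below. No share over all genes stands beside these counts, so they only describe the members. In SNHG5 the share at 1 and 6 h was 19.7% and 29.1% in WT and 25.0% and 44.9% in CD47- cells, and in SNHG6 it was 3.51% and 8.07% in WT and 5.34% and 15.6% in CD47- cells. The member below in each line was SNHG14, with 42.7% and 37.7% in WT and 43.2% and 32.4% in CD47- cells. These shares are model estimates from short reads, since RSEM divides reads that fit several isoforms.

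**Figure D5:**
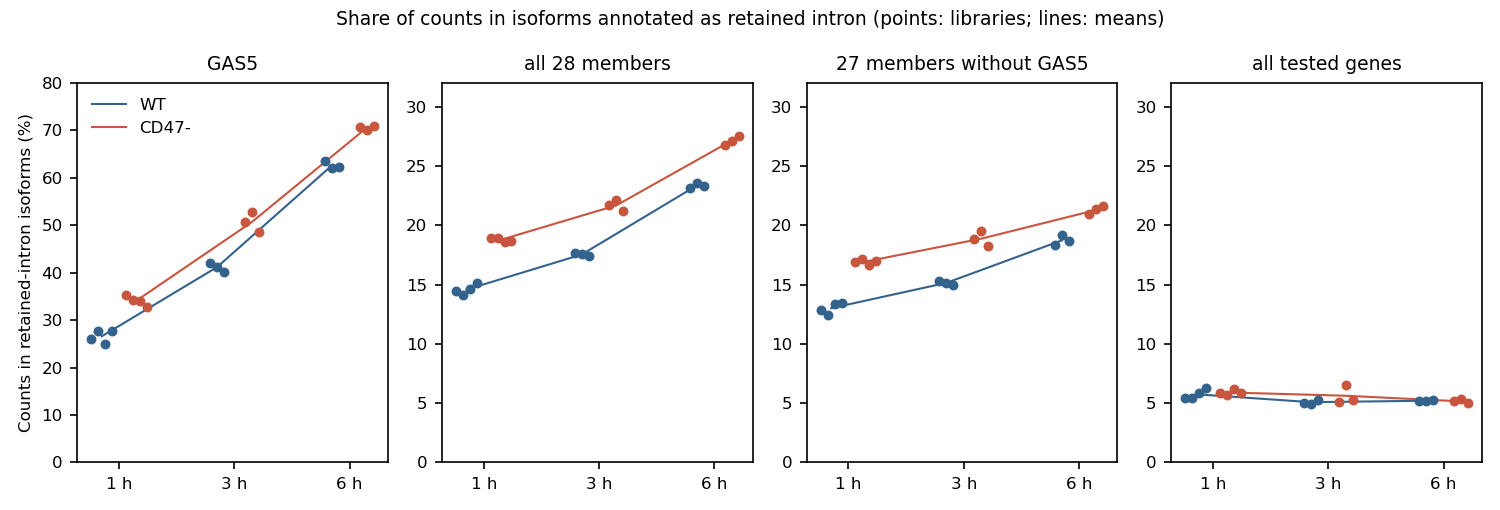
Percentage of counts in isoforms annotated as retained intron in each library at 1, 3 and 6 h, for GAS5, for all 28 members, for 27 members without GAS5 and for all genes tested, with lines through group means. The axis runs to 80% for GAS5 and to 32% in the other panels, and the pooled share is higher at 6 h than at 1 h in GAS5 and in the members together, and lower at 6 h over all genes.

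Leading isoforms of SNHG1, ZFAS1 and EPB41L4A-AS1 were also tested from 1 to 6 h. SNHG1-231, with 2 exons, rose by 0.87 in WT (SE 0.189, adjusted p = 0.0114) and 1.02 in CD47- cells (SE 0.190, adjusted p = 0.00442), while SNHG1-211, with 11 exons, had log2 fold changes of -0.46 and -0.37 and was not called. ZFAS1-204 and ZFAS1-205 fell in both lines, by 1.34 and 1.00 in WT and by 0.96 and 0.85 in CD47- cells on the log2 scale. EPB41L4A-AS1-204 fell in both, with log2 fold changes of -2.21 (SE 0.238, adjusted p = 0.000205) in WT and -1.03 (SE 0.231, adjusted p = 0.0119) in CD47- cells, although the gene as a whole rose in CD47- cells. EPB41L4A-AS1-205, the most abundant isoform, had log2 fold changes of -0.92 in WT (SE 0.144, adjusted p = 0.00188) and 0.39 in CD47- cells (SE 0.143, adjusted p = 0.0928), the latter not called. Between the lines over all times, the leading isoform of SNHG29 was lower in CD47- cells (log2 fold change -0.81, SE 0.112, adjusted p = 2.4e-05) and held 61.8 ± 2.42% of SNHG29 counts in WT and 49.9 ± 3.58% in CD47- cells. SNHG7-205 was also lower (-0.60, SE 0.143, adjusted p = 0.00561), and SNHG32-204 was lower (-1.05, SE 0.146, adjusted p = 2.3e-05), each with n = 10 libraries a line in the edgeR test.

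No member was called in the 4 treatment comparisons tested, and none of these used untreated cells. CD3+CD28+TSP1 against TSP1, named activation below although both arms hold TSP1, called 0 members in WT, with a background of 0.0919% of genes. It called 0 in CD47- cells, with a background of 0%. CD3+CD28+TSP1 against CD3+CD28 called 0 members in each line, with backgrounds of 0% and 0%. At an unadjusted p under 0.05 in edgeR there were 2, 5, 0 and 2 of 28 members in these 4 comparisons. Over all 16327 genes there were 816, 2636, 366 and 1771. DESeq2 and limma voom called 0 members in each. The median log2 fold changes were 0.02, -0.09, 0.0004 and -0.11.

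Other genes of snoRNA biology were described by lists, whose counts stand beside the shares over all genes, 25.7% rising and 24.8% falling in WT, 26% and 27% in CD47- cells, and 6.46% and 10.2% for a positive and a negative interaction. Of 17 genes for the proteins and assembly factors of snoRNA particles, 11 rose and 2 fell from 1 to 6 h in WT, with a median log2 fold change of 0.34, and 12 rose and 1 fell in CD47- cells, with a median of 0.64. RUVBL1, an ATPase of particle assembly, rose by 1.14 in WT (SE 0.059, adjusted p = 6.05e-09) and 1.21 in CD47- cells (SE 0.058, adjusted p = 3.9e-09), SHQ1, a chaperone of dyskerin, rose by 1.18 in WT (SE 0.066, adjusted p = 1.12e-08), and NOLC1, a nucleolar snoRNA chaperone, rose by 1.15 in CD47- cells (SE 0.062, adjusted p = 7.07e-09). The interaction was called positive in 4 and negative in 1. Of 36 protein-coding snoRNA hosts outside the ribosomal proteins, 17 rose and 7 fell in WT and 18 rose and 3 fell in CD47- cells, with medians of 0.15 and 0.23. NOP56 and DKC1 are in both this list and that of the particle proteins, so the lists are not separate sets. PPAN, a ribosome biogenesis factor, rose by 1.44 (SE 0.117, adjusted p = 3.01e-07) and 1.89 (SE 0.117, adjusted p = 2.07e-08), and EIF4G1, a translation initiation factor, by 0.72 and 1.05. The interaction was positive in 7 and negative in none of these 36. Of 12 genes of nonsense-mediated decay and translation termination, 5 rose and 2 fell in WT and 4 rose and 3 fell in CD47- cells, with medians of -0.05 and -0.06. GSPT1 and UPF1, a termination factor and the central decay helicase, rose by 0.52 and 0.59 in WT and by 0.57 and 0.65 in CD47- cells. MYC, given as context, was higher in CD47- cells over all times (log2 fold change 1.15, SE 0.324, adjusted p = 0.00673) and rose from 1 to 6 h by 1.67 in WT and 1.78 in CD47- cells, with an interaction of 0.11 (SE 0.153).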

How the data were processed

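RNA from 20 Jurkat libraries was sequenced after poly(A) selection (TruSeq). The authors deposited expected counts from RSEM 1.3.3, after trimming (Cutadapt 1.18) and alignment to GRCh38 (STAR 2.4.2a, run in 2 passes), per gene and isoform on GENCODE 36, without normalization. The strand setting, and the batch removed with ComBat in the study, are not given in the sources used here. Each table holds 2 further columns that are no sample of the series and were not used.

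Expected counts were rounded. Tests used edgeR 4.0.16 in R 4.3.3 (filterByExpr, minimum count 10, minimum total 15, TMM factors, quasi-likelihood test), with p-values adjusted across every gene or isoform tested (Benjamini-Hochberg) and a threshold of 0.05. The line comparison used 10 libraries a line. All other contrasts came from 1 model of 20 libraries with line by treatment coefficients and time terms in each line. It had no treatment by time terms. Contrasts between the lines at a given time were averaged over the 3 treatments present at every time. Counting depth limits members such as SNHG31, SNHG25 and SNHG28. The tests were tried on simulated data. Libraries were paired across lines by treatment and time, as the labels give them.

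Every member is named. Values per library, or their range over a group, are given for GAS5, SNHG1, ZFAS1 and EPB41L4A-AS1, for members called in the interaction, and, among called members with mean log2 CPM of at least 1, for the 4 with the largest change in the line comparison and in 6 h against 1 h in each line, and for the leading 2 isoforms. The members and lists were chosen with earlier results of these data known. The alternatives were DESeq2 1.42.0, limma 3.58.1 voom with quantile normalization, upper-quartile factors, other low-count filters, other models, the matched pairs and each library left out.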

Additional observations from a re-analysis of the deposited data

Results flagged for a closer look

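The effect of time differed between the lines by the interaction test (edgeR) in the following host genes, given as the log2 difference of CD47- minus WT. For the change from 1 to 6 h it was 1.18 in SNHG19, 1.02 in SNHG7, 0.95 in EPB41L4A-AS1, 0.79 in SNHG26, 0.78 in SNHG17, 0.71 in SNHG15, 0.66 in SNHG12, 0.65 in SNHG8, 0.62 in GAS5 and 0.41 in SNHG3, and for the change from 1 to 3 h it was 0.48 in EPB41L4A-AS1. In GAS5 and EPB41L4A-AS1 the change from 1 to 6 h was negative in WT and positive in CD47- cells, with both called. No member had a single library far from the others in the groups of 4 libraries at 1 h, where 56 groups were examined.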

How the results depend on the processing

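No called value changed direction under any alternative, though values near 0 that were not called did, such as SNHG12 and SNHG15 between the lines at 1 h (-0.11 to 0.07 and -0.04 to 0.10). Of 127 calls on members, 83 held in every alternative and 44 were lost in at least 1. Lost in 10 or more were SNHG25 between the lines, SNHG19 at 6 h, SNHG4 in WT at 3 and 6 h, GAS5 and SNHG31 in WT at 6 h, SNHG12 in CD47- cells at 3 h and the interaction of EPB41L4A-AS1 at 3 h. Other members gained a call in some alternatives. In SNHG5 the line difference at 6 h was called in 8 and the interaction at 6 h in 6. The change of SNHG29 from 1 to 6 h in CD47- cells was called in 6, and the line difference of SNHG22 at 6 h in 7. Between the lines, members higher numbered 2 with DESeq2 or upper-quartile factors, 4 with the replicate block of 10 matched pairs and 6 in the model with treatment and time terms, which called 10116 genes. Members lower numbered 12 with the replicate block and 13 in that model. DESeq2 gave 1 member higher at 3 h in WT, 3 members and 1069 genes for the interaction at 3 h, 54 genes for activation in WT (limma voom 28) and 1 gene for TSP1 in activated WT cells. With no low-count filter, 5 members rose at 6 h in WT.

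Leaving out 1 library gave ranges. Members higher between the lines numbered 1 to 2, at 3 h 2 to 5 and at 6 h 5 to 11, and members lower at 3 h 8 to 17 and at 6 h 2 to 6. Genes called in either direction numbered 6307 to 6855 between the lines, 6022 to 7792 at 3 h and 6277 to 8977 at 6 h. Members rising numbered 1 to 3 at 3 h in WT, 4 to 11 at 6 h in WT and 2 to 7 at 3 h in CD47- cells. In the same order, genes called in either direction numbered 4204 to 7099, 6951 to 9404 and 4623 to 6220. The interaction at 3 h called 169 to 1066 genes and 0 to 3 members higher and 0 to 1 lower, and that at 6 h 1459 to 4273 genes and 0 to 1 members lower. Activation in WT called 0 to 42 genes, and TSP1 in activated CD47- cells 0 to 1.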
